A study of Mus musculus with 8 samples.

Results

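The genes described here are 8 genes of the myelin sheath (Mag, Mbp, Mog, Mobp, Cnp, Pmp22, Cldn11 and Mal), found by symbol among 23100 genes of a table of raw read counts. All 8 were in the table, and 5 of them passed the low-count filter and could be tested, of 14331 genes tested in all. The group was chosen by the difference in Mag reads between the Zac1 and control libraries, known from an earlier look at these counts, and the other 7 were added as genes of the same sheath. The difference in Mag between the groups is therefore given as a description, with no test, and the others were listed with results on these counts already known. The cells were Min6, a mouse insulinoma line with properties of the pancreatic beta cell. They had been transfected by Lipofectamine with pRK5-Zac1, which expresses the zinc finger transcription factor Zac1 (gene Plagl1), or with pRK5-NLSeGFP, which expresses a green fluorescent protein sent to the nucleus, as the negative control. RNA was taken after 16 h in both groups, and each group held 4 libraries, numbered 1, 2, 3 and 5. Both groups came from 1 cell line and went through the same transfection procedure, and the fraction of cells that took up a plasmid is not stated in the labels. In these bulk libraries a strong rise in few cells and a weak rise in many cannot be told apart.

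Myelin is the multilayered membrane that oligodendrocytes wrap around axons in the central nervous system and Schwann cells in peripheral nerves. Its compact layers are held together by proteins such as MBP, while adhesion molecules such as MAG sit on the innermost turn facing the axon, and claudin-11 seals the layers with tight junctions. In oligodendrocytes the genes are switched on together by SOX10 and by MYRF, a membrane-bound transcription factor, and in Schwann cells by SOX10 and EGR2. Several of them also have uses outside glia. CNP is found at a low level in many cells, PMP22 in epithelia and fibroblasts, and the Mbp locus also makes golli transcripts, which other cell types use.

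The sequences before the transcription starts are shown first for the 2 members that were higher with Zac1, and for Cnp, whose groups overlapped, as a contrast. They were taken from RefSeq promoter windows of 300 bases on build GRCm38.p6, matched by gene ID, and the counts themselves were made on mm9. Capitals mark matches to GGGGCCCC, the palindrome reported as a binding sequence of Zac1, or to the shortened GGGGCCC, searched on both strands. The 2 motifs overlap, since each full palindrome holds the shortened form on both strands.
Mag, outermost start, chr7:30914873-30915172, minus strand: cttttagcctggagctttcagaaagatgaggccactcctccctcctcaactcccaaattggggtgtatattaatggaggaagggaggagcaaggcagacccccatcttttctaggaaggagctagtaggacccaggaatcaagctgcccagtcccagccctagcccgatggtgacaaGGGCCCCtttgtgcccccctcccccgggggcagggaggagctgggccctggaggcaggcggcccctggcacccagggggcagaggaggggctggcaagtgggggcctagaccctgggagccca
Pmp22, outermost start, chr11:63128732-63129031, plus strand: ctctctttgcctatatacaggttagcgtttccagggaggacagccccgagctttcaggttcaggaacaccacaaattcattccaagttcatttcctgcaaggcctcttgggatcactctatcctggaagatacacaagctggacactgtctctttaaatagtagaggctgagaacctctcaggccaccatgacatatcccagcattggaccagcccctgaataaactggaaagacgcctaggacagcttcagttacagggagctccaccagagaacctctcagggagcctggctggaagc
Pmp22, inner start with a match, chr11:63132319-63132618, plus strand: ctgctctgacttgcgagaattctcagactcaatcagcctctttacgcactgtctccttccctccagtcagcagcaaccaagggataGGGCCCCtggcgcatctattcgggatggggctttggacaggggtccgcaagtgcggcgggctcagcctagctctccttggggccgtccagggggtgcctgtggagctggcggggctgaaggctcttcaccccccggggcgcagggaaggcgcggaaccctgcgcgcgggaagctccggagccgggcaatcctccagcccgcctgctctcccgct
Cnp, chr11:100574689-100574988, plus strand: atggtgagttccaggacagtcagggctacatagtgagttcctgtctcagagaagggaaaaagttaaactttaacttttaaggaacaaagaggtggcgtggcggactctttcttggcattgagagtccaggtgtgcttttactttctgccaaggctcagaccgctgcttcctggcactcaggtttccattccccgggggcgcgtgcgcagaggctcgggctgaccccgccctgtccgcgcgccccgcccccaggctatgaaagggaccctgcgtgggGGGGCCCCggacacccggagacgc

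The shortened motif was present in 2 of the 3 Mag windows, which overlap each other and share the match, and in 1 of the 4 Pmp22 windows. The only window of Cldn11 held it as well. The full palindrome was present in the Cnp window and in none of the windows of Mag, Pmp22, Cldn11, Mal, Mobp or Mog. Among all 32851 windows of the RefSeq set, the shortened motif was present in 6.66% and the full palindrome in 1.08%. Among the 14388 windows of tested genes, which are richer in G and C (median 60.3% against 52.7%), these shares were 9.40% and 1.52%. The G and C content was 63% in the Mag window shown, 50.7% in the outermost Pmp22 window and 66.3% in its inner window. Matches are letters in a window and not evidence of binding, and the counts do not tell which start was used.

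Mag, a sialic acid-binding adhesion protein (siglec-4a) of the myelin layer next to the axon, had 1 read in each of the 4 control libraries. With Zac1 it had 170, 147, 160 and 148 reads in libraries 1, 2, 3 and 5. Scaled to the depth of each library, these were 4.06, 4.17, 3.86 and 3.50 CPM (reads of a gene for each M, or mega, of the library's size after TMM scaling, which moved the totals by less than 2%), against 0.0293, 0.0284, 0.0314 and 0.0327 CPM in the controls. Every Zac1 library was thus far above every control library. The groups together held 625 against 4 reads, a ratio of rates of 128 with a counting interval (95%, exact) of 49.7 to 471, which is wide because of the 4 control reads. Among the Zac1 libraries Mag varied by 7.58% (SD as a percentage of the mean, n = 4), where counting error alone at this depth gives 8%. The level in control cells lay below all but 0.188% of the tested genes. With Zac1 it lay above 23.9% of them, so Mag remained in the lower part of the expressed range.

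**Figure D1:**
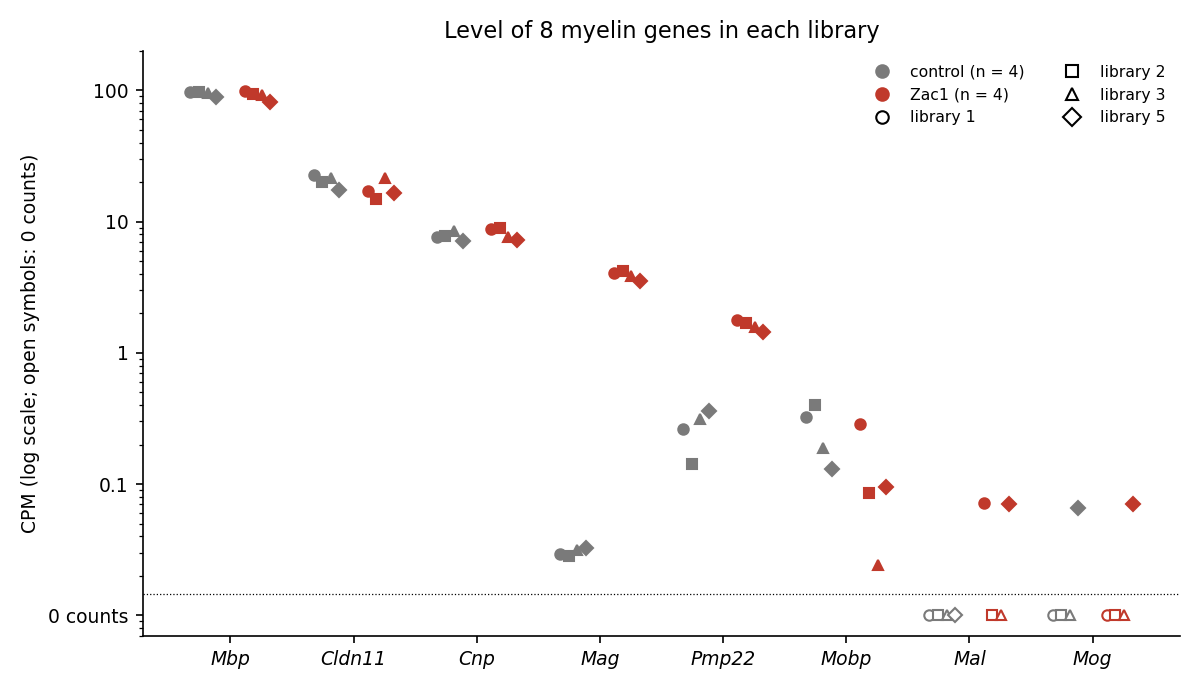
CPM (log axis) of the 8 myelin genes in each of the 4 control (grey) and 4 Zac1 (red) libraries, with libraries of 0 reads drawn as open symbols under the dotted line. The groups are apart for Mag and Pmp22 and overlap for the other 6 genes.

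Pmp22, the peripheral myelin protein of compact Schwann cell myelin, was also higher. It had 9, 5, 10 and 11 reads in control libraries 1, 2, 3 and 5, and 75, 59, 65 and 61 reads in the Zac1 libraries of the same numbers. The lowest Zac1 library (1.44 CPM) was 4 times the highest control library (0.36 CPM), so the groups did not overlap. The mean rose from 0.270 ± 0.0939 to 1.62 ± 0.150 CPM (SD, n = 4 each), a 6.01-fold increase (log2 2.59 ± 0.25, SE; edgeR adjusted p = 2.42e-05). Pmp22 passed the low-count filter through its reads in the Zac1 libraries, so its entry into the test depended on the rise itself. With no filter it passed as well (edgeR adjusted p = 3.15e-07), and over 16 alternatives the adjusted p ran from 2.46e-12 to 0.000243. The controls held 35 reads in all, and the ratio of rates had a counting interval of 4.27 to 8.93. The spread among control libraries (34.8% of the mean) was close to what counting error gives (33.8%). As a rank of fold change, Pmp22 stood 83rd of 14331 tested genes.

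Of the 4 tested members other than Mag, 1 (Pmp22) passed the edgeR threshold (adjusted p under 0.05), and it was higher. Of all tested genes, 2.15% passed as higher and 0.0349% as lower, and 4.39% had all 4 Zac1 libraries above all 4 controls. No inference is drawn from the count of members, since they were listed with results on these counts known.

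The 3 members with the highest levels did not pass the test. Mbp, the myelin basic protein gene, was already abundant in control cells, at 97.5, 96.5, 94.9 and 89.2 CPM, and stood at 99.1, 93.9, 91.4 and 82.0 CPM with Zac1. The groups overlapped, and the log2 difference was -0.05 with a 95% interval of -0.17 to 0.08 (edgeR adjusted p = 0.960). The counts are given per gene, so reads of classic and golli transcripts of Mbp cannot be told apart here.

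Cldn11, the claudin of the tight junctions between myelin layers, measured 22.6, 20.2, 21.6 and 17.3 CPM in control cells. With Zac1 it measured 17.1, 14.8, 21.5 and 16.6 CPM. Library 3 was within the control range, while libraries 1, 2 and 5 were below it, with library 2 the lowest of all 8. The log2 difference was -0.22, with an interval of -0.46 to 0.01 (edgeR adjusted p = 0.713). Cnp, the gene of a cyclic nucleotide phosphodiesterase of the cytoplasmic channels of myelin, measured 7.67, 7.73, 8.45 and 7.07 CPM against 8.70, 8.97, 7.69 and 7.29 CPM with Zac1. Its groups overlapped, with a log2 difference of 0.08 and an interval of -0.13 to 0.29 (edgeR adjusted p = 0.960). For these 3 genes the intervals leave out an increase beyond 1.22-fold, against 6.01-fold for Pmp22.

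The remaining 3 members had too few reads to pass the filter. Mobp, a basic protein of compact central myelin, had 11, 14, 6 and 4 reads in the control libraries and 12, 3, 1 and 4 with Zac1. Its groups overlapped, since Zac1 library 1 (0.287 CPM) lay within the control range of 0.131 to 0.398 CPM, while the other 3 Zac1 libraries lay below it. The groups together held 20 reads with Zac1 against 35 in the controls, a ratio of rates of 0.468 with a counting interval of 0.256 to 0.834. That interval covers counting error only, and the libraries of a group varied by more than it, at 47.0% of the mean in the controls and 92.8% with Zac1, where counting error gives 33.8% and 44.7%. Mog, the glycoprotein on the outermost myelin surface, had reads only in the libraries numbered 5, which were 2 in the control and 3 with Zac1. Mal, a proteolipid of myelin and of apical transport in epithelia, had 0 reads in every control library and 3, 0, 0 and 3 with Zac1. A count of 0 allows up to 3 reads, which is 0.0853 to 0.0982 CPM in the control libraries. No Zac1 library had more than 3 reads of Mal, so a difference of moderate size was not detectable at this depth. When edgeR was run with no filter, the 3 genes had adjusted p of 0.732 (Mobp), 0.987 (Mog) and 0.634 (Mal).

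**Figure D2:**
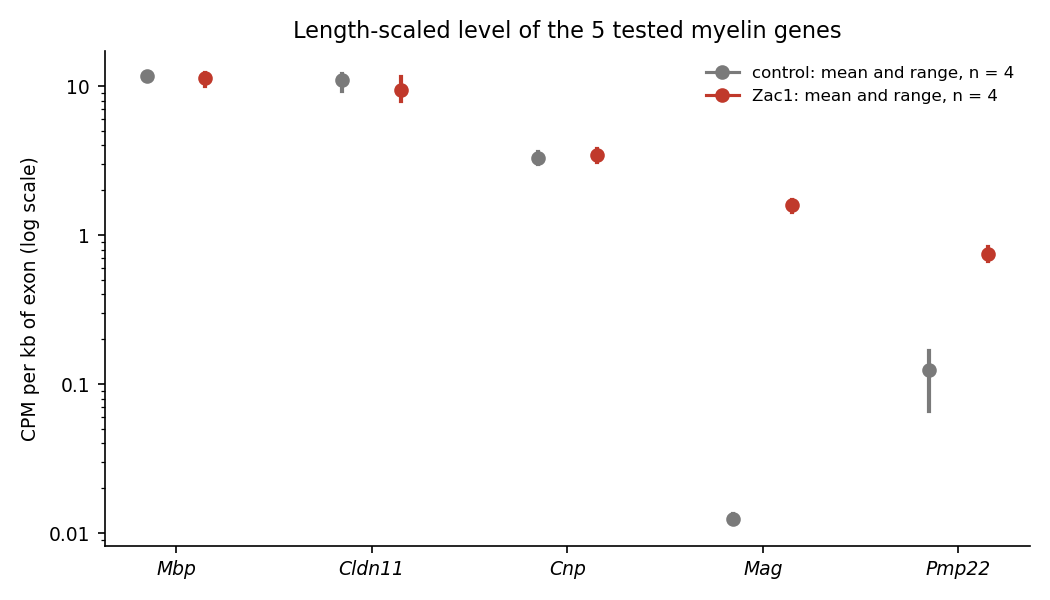
CPM per kb of exon (log axis) of the 5 tested members in control (grey) and Zac1 (red) libraries, with points for the mean and bars for the range over 4 libraries. Mag moves from the bottom of the order to between Cnp and Pmp22, while Mbp, Cldn11 and Cnp keep their places.

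Levels of different genes were compared per kb of exon (merged exons of the GENCODE M21 basic set). In control cells Mbp stood highest at 11.6 CPM per kb, followed by Cldn11 at 10.9, and their ranges over the libraries overlapped. Cnp followed at 3.28, Pmp22 at 0.125, Mobp at 0.0554, Mag at 0.0125 and Mog at 0.0096 CPM per kb, and Mal was at 0. The ranges of Pmp22 and Mobp overlapped, and so did those of Mag and Mog. With Zac1 the order of the first 3 was the same, with Mbp at 11.3, Cldn11 at 9.35 and Cnp at 3.46 CPM per kb. Mag came next at 1.60, above Pmp22 at 0.751 CPM per kb, and neither overlapped its neighbours. The length of Mbp (8.12 kb) merges the exons of all its transcripts in that set, so its level per kb is understated if some are little used.

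Other genes of the sheath and of its control were taken from 3 lists that left out the 8 members. They held 50 genes that are reported here, of which 31 were tested. Of these 2 passed, both higher, where 2.18% of all tested genes passed in either direction. The median log2 difference of the 31 was 0.01, against -0.01 over all tested genes. The 2 genes that passed were Myrf and Cntn2. With lists this short, the counts of calls here and below are not read as results about the lists.

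Myrf, the gene of the transcription factor that turns on central myelin genes in oligodendrocytes, is listed in the table under its older symbol Gm98 and was matched by gene ID. It measured 0.731, 0.796, 0.534 and 0.327 CPM in control libraries 1, 2, 3 and 5, and 4.02, 4.77, 4.53 and 3.83 CPM in the Zac1 libraries. The groups were well apart, with 10 to 28 reads per control library against 162 to 188. Gm98 rose 7.05-fold (log2 2.82 ± 0.20, SE; edgeR adjusted p = 1.3e-06). It was the only gene called among 11 tested regulators of oligodendrocytes and Schwann cells. Egr2, the Schwann cell regulator, had a log2 difference of 0.60 with an interval of 0.09 to 1.11, and did not pass (edgeR adjusted p = 0.478). Nkx2-2, a regulator shared by oligodendrocytes and beta cells, stood at 36.6 ± 2.37 CPM in controls and 35.2 ± 3.88 CPM with Zac1 (edgeR adjusted p = 0.962). Olig2 had 0 reads in all 8 libraries, and Sox10 had 0 in the controls and 4, 5, 4 and 0 with Zac1 (edgeR with no filter, adjusted p = 0.183).

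Cntn2, a contactin of a zone near the node of Ranvier, was the only gene called among 11 tested structural genes outside the members. It measured 0.497, 0.569, 0.471 and 0.556 CPM in the controls and 1.10, 1.48, 1.33 and 1.66 CPM with Zac1, without overlap (2.64-fold, log2 1.40 ± 0.22, SE; edgeR adjusted p = 0.00132). Cntnap1 and Nfasc, adhesion genes of the neighbouring paranode, were abundant in both groups and had log2 differences of -0.05 and -0.03. Hapln2, a link protein of nodal matrix chosen after its values were seen, had 3, 0, 0 and 1 reads in the controls and 14, 9, 15 and 10 with Zac1. The filter removed it, and with no filter it was called (log2 3.16 ± 0.68, SE; edgeR adjusted p = 0.00689).

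**Figure D3:**
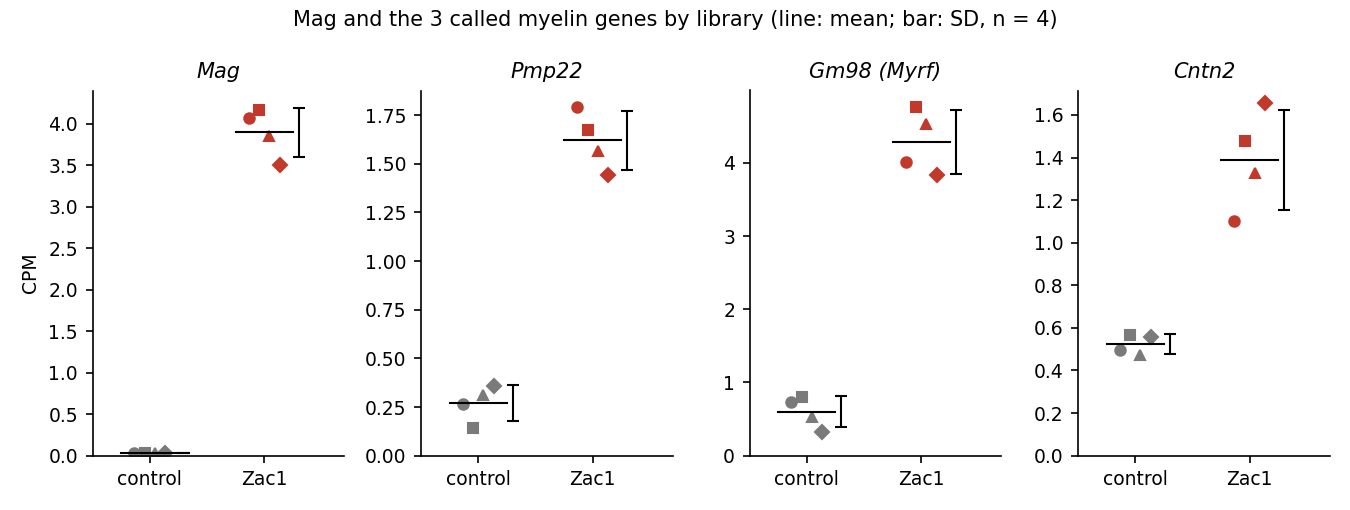
CPM of Mag, Pmp22, Gm98 (Myrf) and Cntn2 in each library (linear axes from 0), with the mean as a line and the SD as a bar (n = 4). In each panel all 4 Zac1 libraries lie above all 4 control libraries.

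Enzymes of myelin lipids gave no call among 9 tested genes in edgeR, and 1 gene, Ugt8a, had an unadjusted p under 0.05 there. Among all 14331 tested genes, 1087 had an unadjusted p under 0.05 in edgeR. Counts of such genes in this and the later short lists are therefore not read as results about the lists. DESeq2 and limma-voom also called none. Ugt8a, which makes galactosylceramide, ranged from 0.720 to 0.966 CPM in the controls and from 0.851 to 1.92 CPM with Zac1, with overlap (log2 0.64, interval 0.09 to 1.18; edgeR adjusted p = 0.481). Fa2h, the hydroxylase of its fatty acid chains, had a log2 difference of 0.41 (edgeR adjusted p = 0.829), and Dhcr7 of cholesterol synthesis -0.08 (edgeR adjusted p = 0.899).

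**Figure D4:**
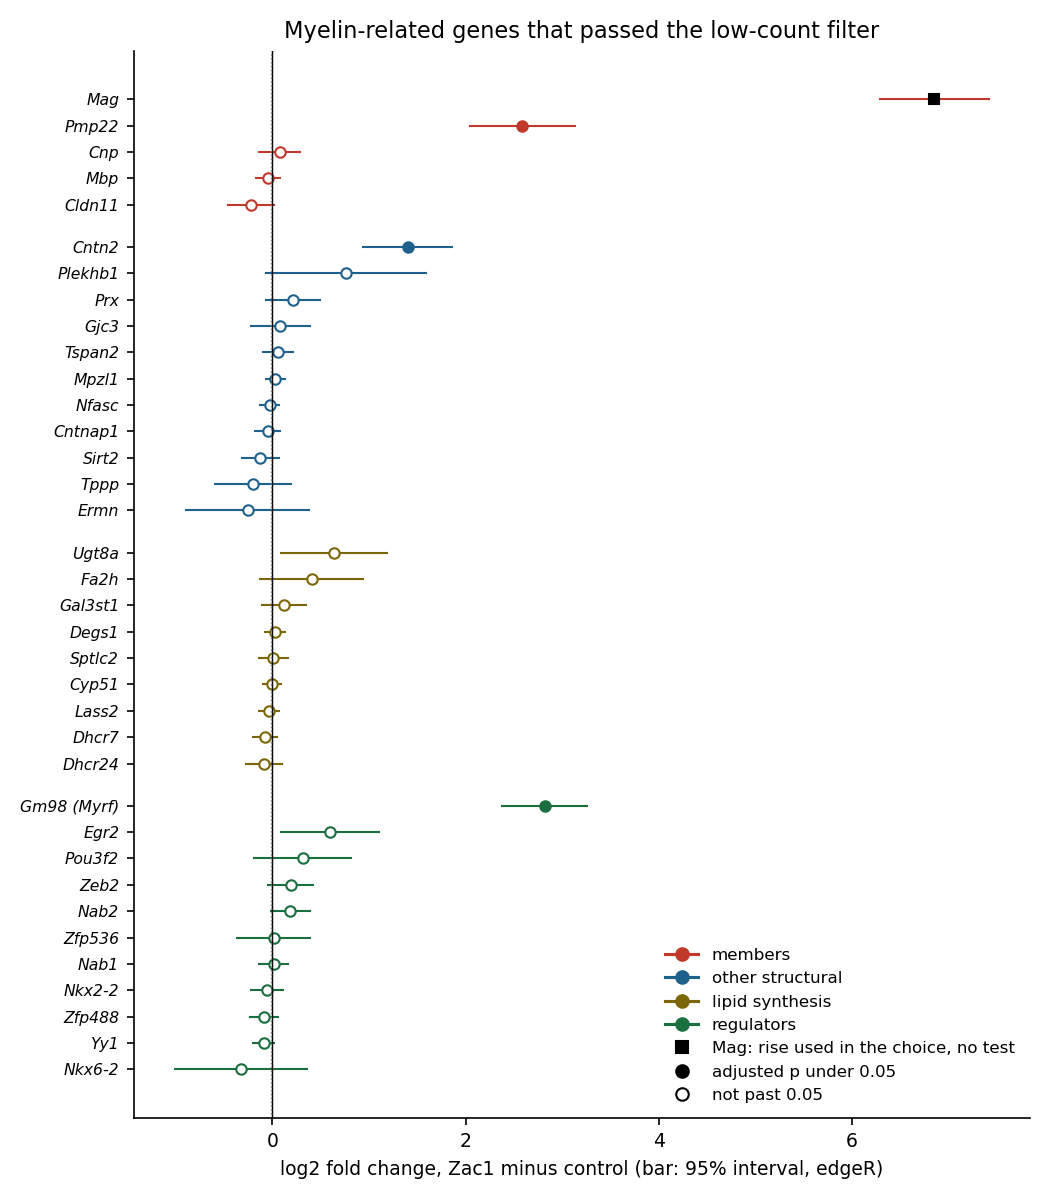
Log2 fold change, Zac1 minus control, with its 95% interval for the 5 members that passed the filter and the 31 tested genes of the 3 wider lists. Filled circles are genes past the threshold. Pmp22, Cntn2 and Gm98 (Myrf) are filled, and most other genes lie near 0. The black square is Mag at 6.85, given with no test. Mag passed the filter through its Zac1 reads, and its interval, from the same fit, is a description only. The upper end of that interval is 171-fold, where the counting interval from the 4 control reads reaches 471. The bar of Mag therefore understates its uncertainty.

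The families of the members were compared next. The 2 siglecs that were tested beside Mag did not pass. Cd22, a B cell receptor, measured 2.37 ± 0.405 CPM in controls and 2.39 ± 0.332 with Zac1 (log2 0.01, edgeR adjusted p = 0.997), and Siglech had a log2 difference of -0.23 (edgeR adjusted p = 0.934). Siglecg, chosen after its values were seen and removed by the filter, had 1, 5, 2 and 3 reads in the controls and 13, 9, 11 and 9 with Zac1 (edgeR with no filter, adjusted p = 0.178). The relatives of Pmp22 that were tested, Emp2 and Emp3, had log2 differences of 0.06 and -0.07 (edgeR adjusted p = 0.986 and 0.985). Of 7 tested claudins and 8 tested genes of the Mal family none was called in edgeR, DESeq2 or limma-voom, and none had an unadjusted p under 0.05 in edgeR. Cldn12 and Cldn1, the other claudins above 10 CPM, had log2 differences of 0.05 and -0.02.

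Cd22 is also the gene next to Mag on the chromosome in the RefSeq gene order, where only genes with deposited counts were considered. The next genes on that side are Ffar1 and Ffar3, free fatty acid receptors, and Ffar1 measured 44.0 ± 4.84 CPM in controls and 42.0 ± 4.38 with Zac1 (log2 -0.07, edgeR adjusted p = 0.960). Ffar3 had a log2 difference of -0.05 (edgeR adjusted p = 0.967). On the other side Hamp2 and Hamp, the hepcidin genes, had at most 7 reads in a library and were not tested, and Usf2 had a log2 difference of -0.09 (edgeR adjusted p = 0.916). No annotated exon of another gene overlapped the exons of any of the 8 members, or those of Myrf or Cntn2, in the GENCODE M21 basic set.

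Receptors and partners of MAG gave no call among 8 tested genes in edgeR, where 1 had an unadjusted p under 0.05. This was Lrp1, an endocytic receptor reported to bind MAG. It measured 18.1, 21.5, 21.1 and 18.4 CPM in the controls and 28.6, 24.5, 29.5 and 21.0 CPM with Zac1, where library 5 fell within the control range. Its log2 difference was 0.39 (edgeR adjusted p = 0.0848), and it passed in DESeq2 (adjusted p = 0.0135) but not in limma-voom (adjusted p = 0.141). Without Zac1 library 5 it passed in edgeR as well (adjusted p = 0.00222). The Nogo receptor Rtn4r and its signalling partners Lingo1 and Ngfr had log2 differences of -0.08, -0.04 and 0.37, none past the threshold. Among 10 genes that make gangliosides, the sialylated lipids to which MAG binds, none was called in edgeR, DESeq2 or limma-voom, none had an unadjusted p under 0.05 in edgeR, and their median log2 difference was -0.01.

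Markers of the cells that make myelin were checked beside these values. The 7 oligodendrocyte lineage markers (Pdgfra, Cspg4, Olig2, Sox10, Enpp6, Gpr17 and Bcas1) had fewer than 10 reads in every library and were not tested. Their summed level was 0.0878 to 0.295 CPM in the controls and 0.189 to 0.539 CPM with Zac1, with overlap, and its part in the results was not tested. Of 8 Schwann cell markers 5 were tested. The sum of all 8 was 13.6 to 16.5 CPM in the controls and 17.2 to 18.5 CPM with Zac1, without overlap, and its part was not tested either. None of the 5 was called in edgeR, DESeq2 or limma-voom, and 1 (Egr2) had an unadjusted p under 0.05 in edgeR. The most abundant beta cell marker in both groups was the insulin gene Ins2, at 40170 ± 6669 CPM in the controls and 37038 ± 3007 with Zac1. Fibroblast, immune and endothelial markers had sums of 1.46 to 2.36, 6.31 to 7.34 and 1.51 to 2.03 CPM in the controls and 1.49 to 1.90, 5.33 to 8.09 and 1.20 to 2.11 CPM with Zac1. Of the 10 tested beta cell markers and the 5 tested markers of these 3 cell types, none was called in edgeR, DESeq2 or limma-voom, and none had an unadjusted p under 0.05 in edgeR.

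The genes most like Mag over the 8 libraries were sought by the Pearson correlation of log2 CPM, among tested genes with a mean of at least 20 reads. This measure mostly reflects the step between the groups, which all these genes share, and it is given with no test. The first 5 named genes were Nefh, the heavy neurofilament chain (r = 0.999), Plagl1 itself (0.999), the collagen chain Col9a2 (0.998), the noncoding RNA H19 (0.998) and Rab11fip5, an effector of recycling endosomes (0.996). Among them, Col9a2 and H19 shared with Mag a control level close to 0 (2 to 3 and 0 reads per library), while Nefh stood at 31.4 CPM in the controls. Pmp22 had r = 0.973 and ranked 51st, while Cnp (0.347), Mbp (-0.276) and Cldn11 (-0.565) ranked far lower. Plagl1 reached 5788, 4249, 4119 and 4370 CPM in Zac1 libraries 1, 2, 3 and 5, while Mag reached 4.06, 4.17, 3.86 and 3.50 CPM. Mag in libraries 1 and 2 differed by less than counting error (8%), so their order is not informative. Whether Mag follows the level of Plagl1 among these libraries was not tested.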

How the data were processed

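Messenger RNA was measured in 8 libraries (TruSeq Stranded mRNA), 4 with pRK5-Zac1 and 4 with the control plasmid. The authors deposited raw counts of reads for each gene, and the submitters' processing notes list bcl2fastq 2.17, FastQC, TopHat2 2.1.1, Bowtie2 2.2.8, HTSeq 0.6.1p1 and mm9. Neither the annotation nor the strand setting is given in the sources used here. Library totals were 30.5 to 42.4 M (mega) counts, where 3 reads correspond to 0.071 to 0.0982 CPM.

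From the deposited counts, edgeR 4.0.16 (R 4.3.3) kept 14331 genes by filterByExpr, scaled them by TMM and ran the robust quasi-likelihood test with the group as the only term. Benjamini-Hochberg adjustment was over all tested genes, with a threshold of 0.05. SE and 95% intervals of log2 differences come from the F statistic. DESeq2 1.42.0 and limma-voom 3.58.1 were among the alternatives. The steps were tested on simulated counts. That simulation changed only genes that passed the filter and had more than a few control reads. It did not cover genes as low as Mag in the controls, or those the filter removed. Log2 CPM for correlations used a prior count of 2. Counting intervals are exact conditional binomial intervals of the summed reads and cover counting error only. The design text calls the replicates biological, and whether they were separate cultures is not stated, so p-values measure the spread between these libraries.

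Members and lists were chosen with earlier results of these data known. Genes were named by a rule: the members, called list genes or otherwise the 3 with the smallest p, the 5 most like Mag, its neighbours and Plagl1; some list genes it covers are given only as counts, and a few genes are not reported here.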

Additional observations from a re-analysis of the deposited data

Results flagged for a closer look

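Of 58 sets of 4 libraries examined (29 genes in 2 groups), 7 had 1 library set apart from the other 3. By chance the cut sets apart about 1 in 20 only for continuous, normally spread values. Several flagged sets hold a few reads, where 1 library stands apart easily, and sets with no reads in any library could not be scored. The count of 7 is therefore not read as an excess. Plagl1 was highest in Zac1 library 1, at 5788 CPM. Mog had reads in 1 control library (0.0654 CPM) and 1 Zac1 library (0.0710 CPM), both numbered 5. Pdgfra was highest in control library 2 (0.0853 CPM) and in Zac1 library 2 (0.113 CPM), at 3 and 4 reads. All 4 Zac1 libraries had 4 reads of it, and library 2 had the smallest size of the 4, so its CPM stands apart through the scaling alone. Hamp2 had 2 reads, all in Zac1 library 2 (0.0567 CPM). Fa2h was lowest in control library 5 (0.458 CPM).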

How the results depend on the processing

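Over 16 alternatives (other scalings, tools, filters, the replicate number as a block, each library left out, and both libraries numbered 5 left out) the count of members called other than Mag was 1 throughout (Pmp22). The log2 difference of Mag ran from 6.42 to 7.01, that of Pmp22 from 2.37 to 2.81 (adjusted p at most 0.000243), that of Gm98 (Myrf) from 2.63 to 2.99 and that of Cntn2 from 1.31 to 1.50 (adjusted p at most 0.00849). Mbp changed sign without Zac1 library 5, at 0.0104, and ran from -0.0860 to 0.0104 when each library was left out. Cldn11 came nearest to the threshold in the fit with the replicate number as a block (adjusted p = 0.0702). The deviations of same-numbered libraries correlated by 0.291, 0.048, 0.143 and 0.292 (libraries 1, 2, 3 and 5), against -0.277 to 0.0788 for different numbers. Of the 8 libraries 7 correlated best with their own number, the exception being control library 2, which is a hint of pairing from the data. The labels do not say what the numbers share and 1 of the 4 pairs was under 0.1, so the block was kept as an alternative. With the block 628 genes were called over the whole table, 512 higher and 116 lower, against 313 without it, and without any 1 library the count was 262 to 362. The list of MAG receptors gained 1 call, Lrp1, in 5 alternatives, and with no filter the structural list gained Hapln2. The level of Mag in control cells rests on 4 reads, so the size of its ratio is imprecise at this depth, and Mog and Mal were too shallow for a difference of moderate size to be detected.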
